A study of Mus musculus with 3 samples.

Results

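Protein kinase C (PKC) and cAMP-dependent protein kinase (PKA) are the serine/threonine kinases through which diacylglycerol, calcium and cAMP act on synaptic proteins, and 9 genes of these families were described in sorted hippocampal cells labelled as CA1 pyramidal neurons. The 9 genes were taken by symbol from a table of 52636 genes, and comprised 5 PKC genes (Prkca, Prkcb, Prkcd, Prkce and Prkcz) and 4 PKA genes (Prkaca, Prkacb, Prkar1b and Prkar2b). All 9 were found, and 5 other PKC and PKA genes were read beside them.

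The RNA came from a single group, called CA1_Pyr_FACS, with 3 biological replicates and no control group. The mice were C57BL/6J males of 28 to 32 days that carried 1 copy of Camk2a-Cre and 1 copy of the Ai14 allele, so that Cre-expressing cells make the red protein tdTomato. Cells expressing tdTomato were collected by fluorescence-activated cell sorting (FACS) from dissociated hippocampi, and each replicate pooled 2 to 4 animals. Camk2a-Cre is driven by the promoter of an excitatory neuron gene, and the dissociated tissue was the whole hippocampus rather than the CA1 field.

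The libraries held 48159841, 25686630 and 15833075 assigned counts in replicates 1, 2 and 3, a 3.04-fold range. Levels are given in TPM, that is, as counts divided by the length of a gene's merged exons and scaled to a total of 1000000 over all genes of a library, so that genes of different length can be compared. A single short feature, Gm23935, took 32.7%, 48.3% and 40.5% of TPM in replicates 1, 2 and 3, and TPM was highest in replicate 1 for 7 of the 9 genes. The spread of a gene over replicates was for this reason read from normalized counts, which are counts divided by a size factor per library. A gene was called detected at 1 CPM (counts scaled to a library total of 1000000) or more in each replicate. Of all nuclear protein-coding genes, 57.0% reached this. All 8 CA1 pyramidal markers were detected (median 75.9 TPM), as were 4 of 4 excitatory neuron markers (310 TPM). The 6 dentate granule markers (48.4 TPM) and the 4 CA3 markers (14.4 TPM) were also all detected. Detection also covered 8 of 8 oligodendrocyte (median 19.3 TPM), 6 of 7 astrocyte (6.48 TPM) and 6 of 6 microglial markers (3.44 TPM). The dentate gene C1ql2 had 196 TPM, above every CA1 marker, of which Fibcd1 was the highest at 141 TPM. The RNA thus held markers beyond those of CA1. Interneuron markers had a median of 0.503 TPM, and Slc32a1 and Vip had counts in replicate 1 only.

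In the PKC family, conventional isozymes such as PKCα and PKCβ need both calcium and diacylglycerol, the nPKC isozymes, PKCδ and PKCε among them, need diacylglycerol alone, and the atypical isozymes PKCζ and PKCι respond to neither. In PKA, regulatory subunits hold the catalytic subunits inactive until cAMP binds, and A-kinase anchoring proteins place the complex beside its substrates. Both kinases are studied in CA1 for their part in long-term potentiation.

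The 9 genes covered a wide range, from Prkce at 243 ± 34.4 TPM to Prkcd at 0.722 ± 0.357 TPM (SD, n = 3). All 9 had a CPM (counts scaled to a library total of 1000000) of at least 1 in each replicate, a level reached by 57.0% of the 21883 nuclear protein-coding genes. Their median level was 51.8 TPM, beside 5.88 TPM over the 17496 nuclear protein-coding genes with a count, and their median percentile among those genes was 92.6. Of the 9, 8 were above that median of all genes and 5 were in the top 10%. As these are bulk RNA values, a lower level through fewer expressing cells and one through less RNA per cell cannot be told apart.

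**Figure D1:**
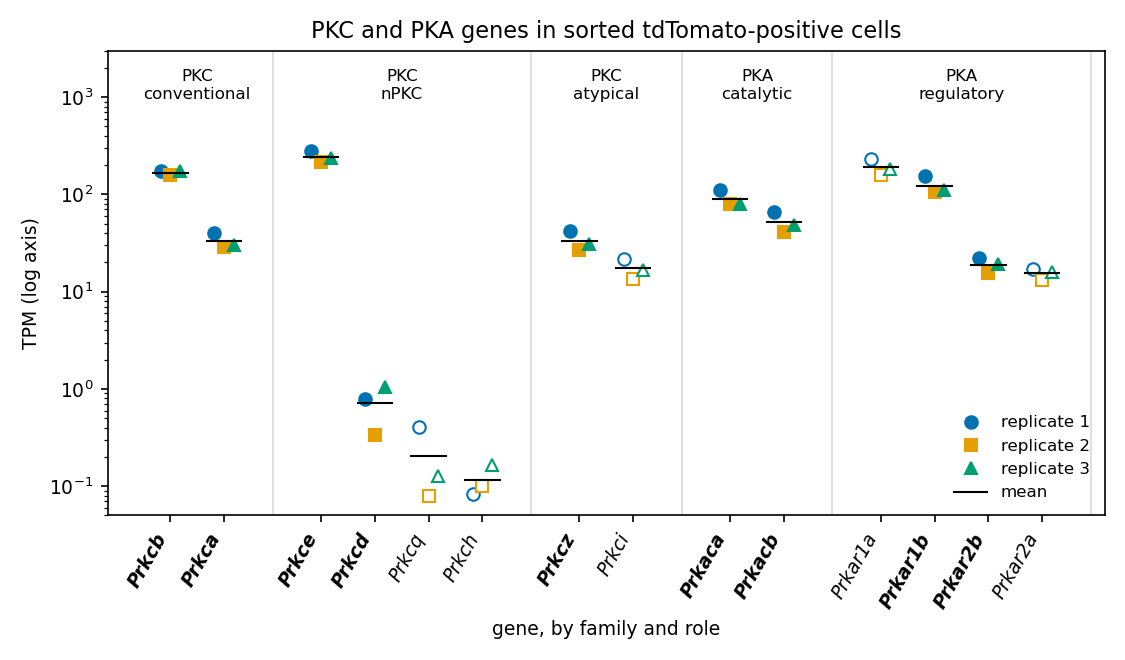
TPM on a log axis for 14 PKC and PKA genes, grouped by family and role. Filled symbols and bold names mark the 9 genes described, open symbols the other 5, and black lines the means of the 3 replicates. Of the 9 genes, Prkce, Prkcb and Prkar1b lie above 100 TPM in each replicate, and Prkcd lies near 1 TPM or below. Of the other 5, Prkar1a also lies above 100 TPM in each replicate, and Prkcq and Prkch have lower means than Prkcd.

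Prkcb and Prkca encode the conventional isozymes PKCβ and PKCα. Prkcb had 173, 158 and 173 TPM in replicates 1, 2 and 3 (168 ± 8.63 TPM, SD, n = 3), at percentile 98.8. Prkca had 39.7, 29.1 and 29.9 TPM (32.9 ± 5.89 TPM), at percentile 86.6. The groups of values did not overlap, and Prkcb was the higher gene in every replicate. The log2 ratio of Prkcb over Prkca was 2.36 ± 0.22 (SD, n = 3), a 5.15-fold difference. With the longest annotated transcript as the length in place of merged exons, it was 3.47.

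In normalized counts, Prkcb and Prkca were not highest in the same replicate. Prkcb had 16573, 19883 and 19863 normalized counts in replicates 1, 2 and 3, with replicate 1 the lowest. Its coefficient of variation (CV) was 10.2%, beside a median CV of 6.51% over 317 nuclear protein-coding genes within 2-fold of its mean normalized count. Of the 9 genes, only Prkcb was lowest in replicate 1, whereas 5 were highest there. Prkca had 4480, 4305 and 4034 normalized counts, with a CV of 5.27% beside 6.40% for 2168 genes of like count.

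Among the nPKC isozymes, nearly all mRNA was Prkce. Prkce encodes PKCε, a calcium-independent isozyme that also binds filamentous actin, and had 281, 214 and 236 TPM in replicates 1, 2 and 3. With a mean of 243 ± 34.4 TPM it ranked at position 114 of the nuclear protein-coding genes (percentile 99.3) and contributed 99.6% ± 0.163 of nPKC TPM. Its 45577, 24583 and 15189 counts gave 25625, 25530 and 25646 normalized counts. The CV of these values was 0.242%, below the 0.654% that counting error alone would give at this depth and lower than that of each of the 178 genes of like count, whose median was 6.92%. With 3 replicates, a CV is itself known only loosely. It also rests on the size factors, as Prkce had 946, 957 and 959 CPM in replicates 1, 2 and 3, a relatively wider spread. The tagwise biological CV from edgeR, which used TMM in their place, was 1.51% for Prkce. That value estimates spread beyond counting error, so it is another measure than the CV of normalized counts.

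Prkcd, which encodes PKCδ, an nPKC isozyme best known in the brain from the thalamus, septum and central amygdala, was at the low end of detection. It had 94, 29 and 50 counts in replicates 1, 2 and 3, which gave 0.782, 0.340 and 1.05 TPM. The normalized counts were 52.9, 30.1 and 84.4, with a CV of 48.9%. The exact 95% Poisson intervals of the normalized counts, which cover counting error only, were 42.7 to 64.7, 20.2 to 43.3 and 62.7 to 111 in replicates 1, 2 and 3. Those of replicates 2 and 3 were separate, and that of replicate 1 overlapped both. Counting error alone would give a CV of 14.0%, the median CV over 1915 genes of like count was 23.8%, and 89.4% of those genes had a lower CV. Prkcd was at percentile 27.4 of nuclear protein-coding genes, and its CPM of 1.95, 1.13 and 3.16 was just above the detection level of 1.

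The log2 ratio of Prkce over Prkcd was 8.53 ± 0.74 (SD, n = 3), a 371-fold difference, and 7.83 with the longest transcript as length. The other 2 nPKC genes were lower still and were not detected in each replicate at 1 CPM. Prkcq had 64, 9 and 8 counts (0.204 ± 0.175 TPM), and Prkch had 14, 12 and 11 counts (0.116 ± 0.0428 TPM).

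The order of replicates in Prkcd was 2, 1 and 3 from low to high, although the interval of replicate 1 overlapped both others. The astrocyte and interneuron lists shared this order, and the other marker lists did not. With 3 replicates few orders are possible, and the shared order was not tested against chance. The 7 astrocyte markers summed to 11088, 7339 and 13302 normalized counts in replicates 1, 2 and 3. Of these, Gfap and Aqp4 were highest in replicate 1 and the other astrocyte markers in replicate 3. The 7 interneuron markers summed to 3115, 2463 and 3142, nearly equal in replicates 1 and 3. The endothelial list (4 genes) summed to 125, 268 and 907 and the microglial list (6 genes) to 599, 652 and 780, both highest in replicate 3. Of these lists, 6 of 7 astrocyte, 2 of 7 interneuron, 6 of 6 microglial and 2 of 4 endothelial markers were detected in each replicate. The CA1 markers summed to 36474, 38099 and 32752, and the 8 oligodendrocyte markers to 22248, 27631 and 21052, both highest in replicate 2 and lowest in replicate 3. The dentate granule list (26797, 23593 and 24648) and the CA3 list (4167, 3950 and 3808) were both highest in replicate 1. The part of other cell types in the counts of Prkcd was not tested.

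**Figure D2:**
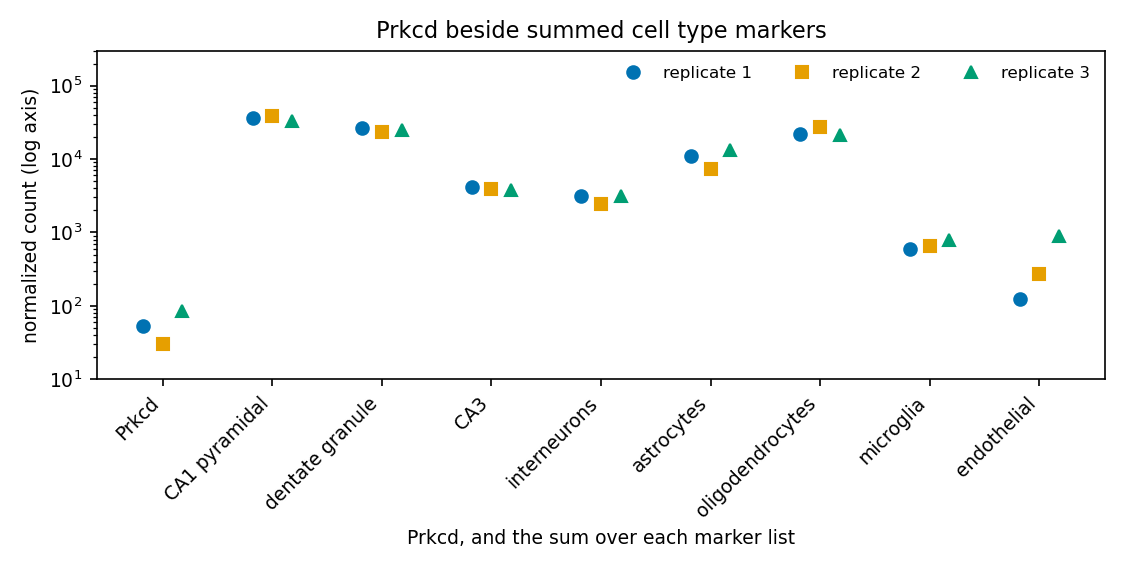
Normalized counts of Prkcd, and of 8 cell type marker lists summed over their genes, in each replicate on a log axis. Prkcd (30.1 to 84.4) and the astrocyte list (7339 to 13302) are both lowest in replicate 2 and highest in replicate 3, and the CA1 list (32752 to 38099) is lowest in replicate 3.

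Prkcz encodes the atypical isozyme PKCζ and, from an internal promoter used in brain, the constitutively active fragment PKMζ, which gene-level counts do not separate. It had 41.6, 27.0 and 30.8 TPM in replicates 1, 2 and 3 (33.1 ± 7.60 TPM), at percentile 86.7. Prkci, the other atypical gene, had 17.4 ± 4.12 TPM, so that Prkcz made up 65.7% ± 0.946 of atypical PKC TPM. The log2 ratio of Prkcz over Prkcd was 5.64 ± 0.72 (SD, n = 3), a 49.9-fold difference. In normalized counts Prkcz had 3301, 2803 and 2919, with a CV of 8.66% beside 6.55% for 3038 genes of like count.

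The level of Prkcz carries a limit from a close copy. Prkcz2 is annotated in GENCODE vM21 as a processed pseudogene, a single exon of 1756 bp at chr7:27882755-27884510 on the minus strand (GRCm38), and lies on another chromosome than Prkcz (chr4:155260129-155361361, minus strand). It aligned with 1755 of the 1776 coding bases of the transcript Prkcz-201, from exon 1 to exon 18 of 18, with 1731 of 1755 columns identical (98.63%), 23 mismatches and 1 gap. The stretch below is coding sequence from exons 3 and 4 of Prkcz (chr4:155354679-155356460, minus strand) and the matching bases of Prkcz2 (chr7:27884202-27884261, minus strand). It is shown because it is the first of the 60-base windows with the most differences between the 2. Capitals mark the 4 positions that differ, and the sequences are those of GENCODE vM21 transcripts, 5′ to 3′.
Prkcz: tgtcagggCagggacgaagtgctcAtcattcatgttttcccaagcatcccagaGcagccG
Prkcz2: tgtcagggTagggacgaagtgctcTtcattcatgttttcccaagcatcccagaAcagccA

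Elsewhere the copies were identical over a run of 302 bases. Of the 6376 different 31-base words in Prkcz transcripts, 1164 (18.3%) also occurred in another gene, and all of these were in Prkcz2. Prkcz2 had 1288, 606 and 355 counts in replicates 1, 2 and 3, equal to 21.9%, 22.5% and 20.5% of the Prkcz counts. Per base, the counts of Prkcz2 were 0.779 ± 0.0358 of those of Prkcz (SD, n = 3). The counts of Prkcz and Prkcz2 therefore kept an almost fixed proportion over the libraries, and how reads that match both were counted is not given in the sources used here. With the Prkcz2 counts added to Prkcz, the level of Prkcz would be 40.3 ± 9.28 TPM. Reads that lie wholly in stretches identical between the pseudogene and Prkcz cannot be told apart here.

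Prkaca and Prkacb had 4 of the 31-base words in common, and their longest identical run, in coding exons 3 and 4 of both genes, was 34 bases. It is printed once, since it is the same at chr8:83981269-83986838 on the plus strand and chr3:146751544-146755663 on the minus strand, and it shows how short the stretch is in which a read could not be placed in 1 catalytic subunit gene.
Prkaca and Prkacb: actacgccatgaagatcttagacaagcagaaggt

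Prkca and Prkcb had a longest shared run of 38 bases and Prkar2a and Prkar2b one of 36 bases. Prkce shared 416 words with AC154542.1, an unclassified transcript that lies within the Prkce locus and is not among the counted genes. Prkaca also shared 69 words with the processed pseudogene Prkaca-ps1, which had 5, 2 and 12 counts beside 6139, 3143 and 1758 for Prkaca. In Prkar1b, 8.95% of exon bases lay within Gm15672, a noncoding transcript on the same strand with 75, 12 and 17 counts. In Prkca, 0.334% of exon bases overlapped Apoh on the opposite strand, and exons of the other 7 genes overlapped no other counted gene.

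The catalytic subunits of PKA, Cα and Cβ, are encoded by Prkaca and Prkacb. Prkaca had 111, 79.7 and 79.6 TPM in replicates 1, 2 and 3 (89.9 ± 17.8 TPM), at percentile 96.7. Prkacb had 65.4, 41.4 and 48.4 TPM (51.8 ± 12.3 TPM), at percentile 92.6. Prkacb was lower within each replicate, although its value in replicate 1 was close to those of Prkaca in replicates 2 and 3. The log2 ratio of Prkacb over Prkaca was -0.81 ± 0.12 (SD, n = 3), a ratio of 0.572.

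This order rested on the length by which the counts were divided. Prkacb had more counts than Prkaca in each library, with 12813, 5760 and 3773, against 6139, 3143 and 1758 for Prkaca. The merged exons of Prkacb span 8772 bp and those of Prkaca 2488 bp, whereas the longest annotated transcripts are of 4347 and 2276 bases. With the longest transcript as the length, the log2 ratio was 0.0789, and with no division by length it was 1.01. Which of the 2 catalytic mRNAs was the more abundant therefore cannot be told apart from these gene-level counts.

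Among the regulatory subunits, Prkar1b and Prkar2b encode RIβ, which is largely restricted to neurons, and RIIβ, a main PKA regulatory subunit of the brain. Prkar1b had 153, 106 and 110 TPM in replicates 1, 2 and 3 (123 ± 26.2 TPM), at percentile 98.1. Prkar2b had 22.3, 15.4 and 19.2 TPM (19.0 ± 3.45 TPM), at percentile 76.0. The values did not overlap, and the log2 ratio of Prkar1b over Prkar2b was 2.70 ± 0.15 (SD, n = 3), a 6.48-fold difference. Of the 2 regulatory genes outside the 9, the widely expressed Prkar1a was the most abundant PKA mRNA (191 ± 37.0 TPM) and Prkar2a the least (15.4 ± 2.01 TPM). The place of Prkar2a depended on length, as it had a mean CPM of 53.1, beside 37.3 for Prkar2b. Type I regulatory subunits thus held most regulatory TPM, 54.7% ± 1.15 for Prkar1a and 35.3% ± 1.75 for Prkar1b, beside 5.46% ± 0.306 for Prkar2b and 4.46% ± 0.420 for Prkar2a.

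**Figure D3:**
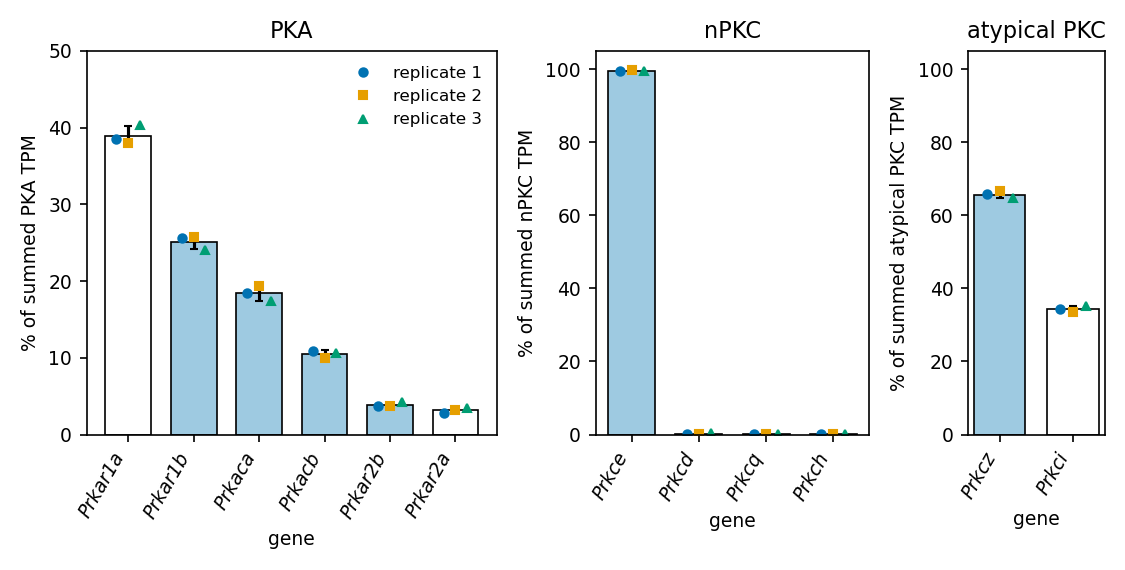
Share of each gene in the summed TPM of its family, or class, for the 6 PKA genes, the 4 nPKC genes and the 2 atypical PKC genes. The vertical axes differ. Bars are means over 3 replicates with SD, symbols are single replicates, and blue bars mark the 9 genes described. Prkar1b (25.1%) follows Prkar1a (38.9%) among PKA genes, Prkce holds 99.6% of nPKC TPM and Prkcz 65.7% of atypical PKC TPM.

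Summed over the family, PKA mRNA came to 490 ± 97.1 TPM (SD, n = 3), of which the 4 PKA genes described held 57.9% ± 1.50. Within PKA, regulatory subunits exceeded catalytic subunits (348 ± 67.5 against 142 ± 29.8 TPM), with a log2 ratio of 1.30 ± 0.06.

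The 6 ratios kept 1 direction in 3 of 3 replicates each, and each mean was larger than its SD. An exact two-sided sign-flip permutation test gave p = 0.25 for each, also after Benjamini-Hochberg adjustment over the 6 pairs. With 3 replicates 0.25 is the smallest p this test can give, so no ratio could pass a conventional threshold.

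**Figure D4:**
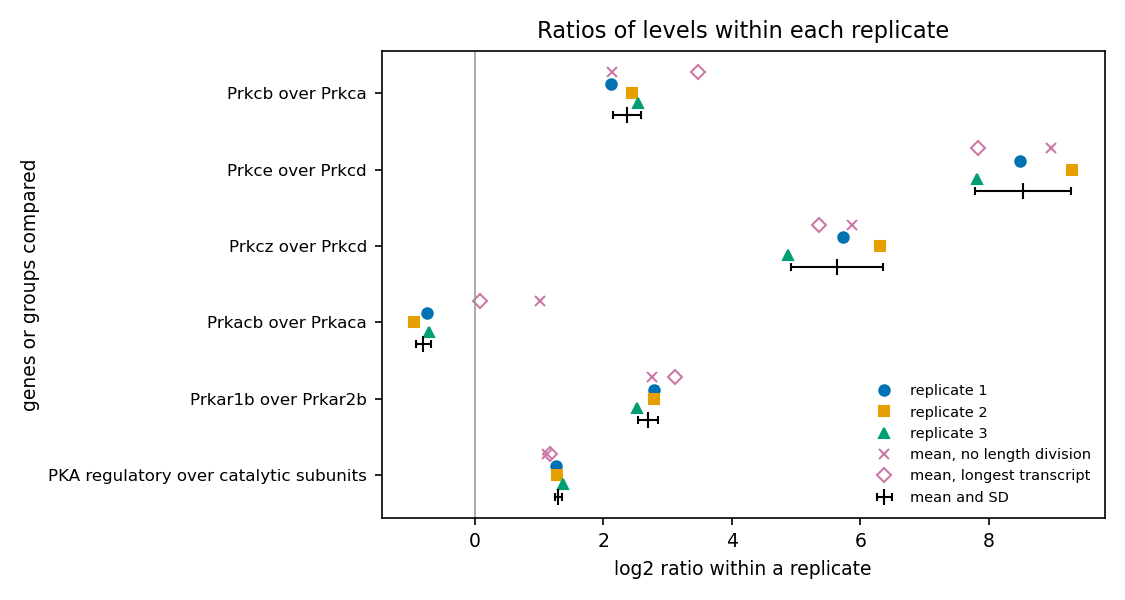
Log2 ratio of TPM within each replicate for the 6 comparisons, with the first-named gene or group over the second, and the mean with SD below the replicates. Crosses and diamonds give the mean with no division by length and with the longest transcript as length; for Prkacb over Prkaca these lie at 1.01 and 0.0789, on the other side of 0 from the TPM mean of -0.81.

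Ordered by TPM, the 9 genes ran Prkce, Prkcb, Prkar1b, Prkaca, Prkacb, Prkcz, Prkca, Prkar2b and Prkcd. The mean log2 difference was larger than its SD for 7 of the 8 neighbouring pairs. The exception was Prkcz over Prkca, with 0.00 ± 0.10 on the log2 scale. Among the upper genes, Prkce over Prkcb was 0.53 ± 0.15, Prkcb over Prkar1b 0.47 ± 0.26 and Prkar1b over Prkaca 0.45 ± 0.03. Prkacb over Prkcz was 0.64 ± 0.02 and Prkca over Prkar2b 0.80 ± 0.14. The widest step was Prkar2b over Prkcd, with 4.85 ± 0.66. With the longest transcript as length, Prkce over Prkcb became -0.46, since the merged exons of Prkcb (7651 bp) are far longer than its longest transcript (3328 bases), so the top place also depended on length.

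Over replicates, the median CV of the normalized counts of the 9 genes was 7.96%, beside 8.75% for all detected nuclear protein-coding genes. Without replicate 1 these medians were 4.45% and 7.996%. Without replicate 2 they were 8.68% and 8.14%, and without replicate 3 they were 6.95% and 5.81%, so that the order of the medians depended on the replicates used. Of the 9, 3 (Prkca, Prkce and Prkar2b) had a CV below the median of genes of like count. Normalized counts were highest in replicate 1 for 5 genes and lowest in replicate 2 for 5 genes. Prkaca had 3452, 3264 and 2968 normalized counts (CV 7.55%), and Prkar1b had 7338, 6669 and 6273 (CV 7.96%), both with replicate 3 the lowest. Prkacb had 7204, 5982 and 6371 (CV 9.58%) and Prkar2b 1023, 927 and 1049 (CV 6.39%), both with replicate 2 the lowest. Apart from Prkcd, the highest replicate was at most 1.20 times the lowest.

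**Figure D5:**
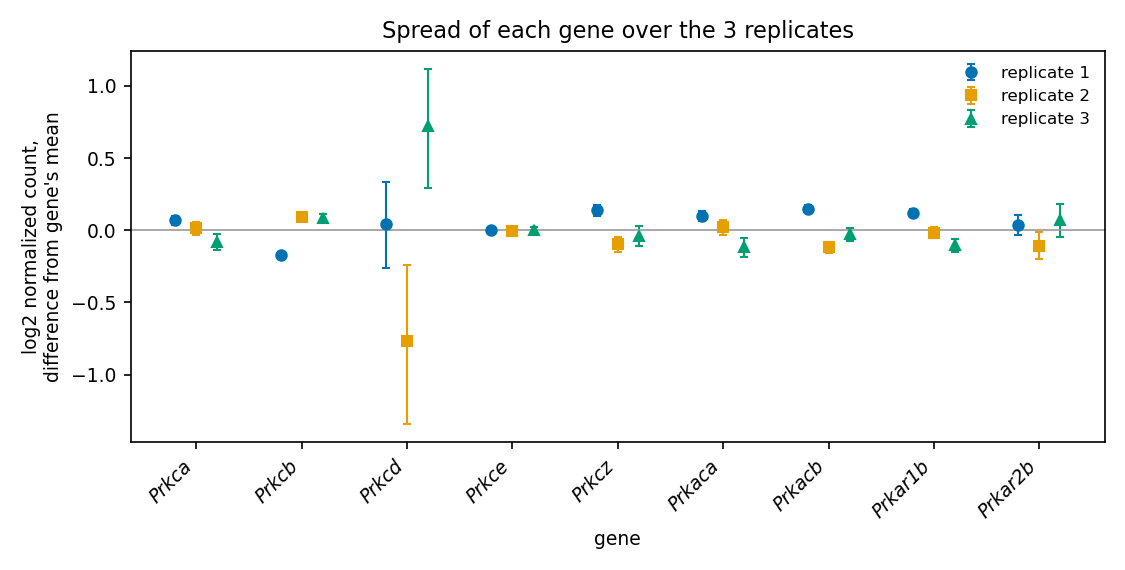
Log2 normalized count of each of the 9 genes in each replicate, as the difference from the mean of its log2 values, with exact 95% Poisson intervals for counting error. The 3 values of Prkce lie within 0.01 of each other, and those of Prkcd spread over 1.49.

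Genes that act with these kinases were read from lists. All 3 PKA inhibitor genes were detected at 1 CPM in each replicate, with Pkia at 70.0 ± 16.3 TPM, Pkig at 32.1 ± 4.57 TPM and Pkib at 0.812 ± 0.0924 TPM. Of 17 A-kinase anchoring protein genes, 15 were detected, and the highest were Wasf1 (291 ± 49.1 TPM), which organizes actin, and the nuclear proteins Akap8l (190 ± 34.2 TPM) and Akap8 (70.4 ± 8.48 TPM). Akap5, which encodes a postsynaptic anchor that binds both PKA and PKC, had 20.9 ± 5.92 TPM (named after its value was seen). Akap4, known from sperm, had 0 counts in all replicates, which allows up to 0.0623, 0.117 and 0.189 CPM in replicates 1, 2 and 3 at a limit of 3 counts.

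Upstream of PKC, 12 of 12 phospholipase C genes were detected, and the highest were Plcb1 (32.0 ± 6.34 TPM), a target of Gq-coupled receptors, Plch2 (25.6 ± 3.91 TPM) and Plcg1 (23.0 ± 3.75 TPM). Diacylglycerol kinases, which remove diacylglycerol, were detected for 9 of 10 genes, led by Dgkz (179 ± 27.4 TPM), Dgkg (55.4 ± 8.34 TPM) and Dgkd (45.3 ± 8.18 TPM). All 6 PKC substrate genes were detected, with Marcksl1 at 123 ± 30.5 TPM, Add2 at 98.2 ± 16.5 TPM and Gap43 at 91.2 ± 20.0 TPM. These encode proteins of the membrane cytoskeleton and growth cone. Among PKC anchors and regulators 7 of 8 were detected, with Sqstm1 (130 ± 29.5 TPM), which encodes the atypical PKC scaffold p62, above Rack1 (32.1 ± 4.60 TPM) and Wwc1 (25.5 ± 4.93 TPM), which encodes KIBRA. Among PKC-related kinases, Prkd1, which encodes protein kinase D1, had 8.07 ± 1.38 TPM and Pkn2 5.03 ± 0.608 TPM.

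Of the 8 PKA substrate and cAMP effector genes listed, 6 were detected. Ppp1r1a, which encodes a phosphatase inhibitor activated by PKA, had 171 ± 19.8 TPM, Rapgef4, which encodes the cAMP sensor EPAC2, 36.8 ± 9.17 TPM, and Ppp1r1b, which encodes DARPP-32, 10.4 ± 2.93 TPM. The detected share of all nuclear protein-coding genes was 57.0%, and nothing is read from these counts beyond it.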

How the data were processed

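RNA of sorted tdTomato-positive hippocampal cells was measured in 3 biological replicates by poly(A) RNA-Seq. The deposited values are raw counts per gene and the merged exon length in bp. Per the labels, the authors used STAR and featureCounts on mm10/GRCm38. For these counts, versions, annotation, strand and multimapping settings are not given in the sources used here. The study names a GENCODE release for its counts of ribosome-bound RNA, but none for the sorted cells. GENCODE vM21 named 52489 of 52636 genes, and 0 sample columns were left out.

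TPM used all genes. Counts were normalized by size factors of 1.78, 0.963 and 0.592 (median of ratios). A gene counted as detected when its CPM reached 1 in all replicates. Genes of like count were nuclear protein-coding genes within 2-fold in mean normalized count. Ratios were taken within replicates and tested by exact sign flips. With 1 group there was no test between groups. Shared sequence was counted in 31-base words and aligned with blastn 2.17.0. Biological CV was estimated with edgeR 4.0.16 in R 4.3.3 with TMM, after being tested on simulated data, and other steps were run in Python 3.11.15 (pandas 2.3.3, scipy 1.17.1, numpy 2.4.6; plots with matplotlib 3.10.9).

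Total counts of 48159841, 25686630 and 15833075 make 1 count worth most in replicate 3, and intervals cover counting error only. The 9 genes and the lists were chosen with earlier results of these data known. Results that need some of the listed genes are not reported here. Named genes were otherwise the 9 genes, the rest of both families, the 3 highest members of each other list with any member at 0 counts, the markers, and the gene nearest in log2(TPM + 1) to each of the 9. Marker lists of CA1, excitatory neurons, CA3, dentate granule neurons and other cell types followed in part the study's lists. Rcsd1 was put in the cAMP effector list by mistake and is counted there as not detected. Alternatives were the unit, length, pseudocount, normalization, filter, biological CV and leaving out each replicate. Adding Prkcz2 counts, the order with longest transcripts, and all alternatives of mean TPM were chosen after seeing the data.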

Additional observations from a re-analysis of the deposited data

How the results depend on the processing

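Across 106 alternatives to 19 results, 77 were classed as the same, 27 as moved and 2 changed sign. Where a result had an SD over replicates, the same meant a shift within that SD. The number of detected genes and the order of levels had no such SD. Both sign changes were in Prkacb over Prkaca, at 1.01 with CPM and 0.0789 with the longest transcript as length. With CPM, which leaves out length, the log2 ratios were 2.13 for Prkcb over Prkca and 1.11 for regulatory over catalytic PKA subunits. With the longest transcript they were 3.47 and 1.16 for the same ratios, and 3.11 for Prkar1b over Prkar2b. A pseudocount of 1 brought Prkce over Prkcd to 7.16 and Prkcz over Prkcd to 4.31, as Prkcd lies below 1 TPM on average. The median percentile was 93.7 with CPM and 89.6 among detected genes. In the order, 5 of 9 genes kept their rank with CPM and 5 with the longest transcript. TPM over nuclear protein-coding genes alone raised levels by a mean of 1.68 on the log2 scale. It cannot change a ratio within a replicate. Leaving out each replicate in turn gave a median CV of 4.45 to 8.68%, the lowest without replicate 1, and swapped only Prkcz and Prkca in the order. With a minimum of 5 CPM or 1 TPM in each replicate, 8 of the 9 genes were detected, Prkcd being the exception. No paired analysis was possible because the series has 1 group, so no groups share replicate numbers; ratios between genes were taken within replicates. Depth limits Prkcd, Prkcq and Prkch, which had 94 counts or fewer in each library.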

Other observations

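For each of the 9 genes, the nuclear protein-coding gene with the nearest profile of log2(TPM + 1) over the 3 replicates was sought, with likeness measured by the largest of the 3 differences. The nearest was Nisch for Prkaca (largest difference 0.01), Dnajc18 for Prkca (0.02), Pcbp2 for Prkacb (0.02), Pgbd5 for Prkar1b (0.02), Slc25a27 for Prkcz (0.02) and Nudt19 for Prkar2b (0.03). Prkcd was nearest to Caskin2 (0.06), Prkce to Tspan13 (0.08) and Prkcb to Mal2 (0.11). Within a difference of 0.1 there were 113 genes for Prkca, 78 for Prkar2b, 3 for Prkce and none for Prkcb.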
